A study of Arabidopsis thaliana with 18 samples.

Results

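The list described here holds the regions bound by FLC in the *svp-41* mutant. It was taken whole, as 419 of the 1503 peaks in the 4 peak lists of the study, with no selection on any value. The study mapped binding of the MADS-box transcription factors FLC and SVP in Arabidopsis seedlings by chromatin immunoprecipitation followed by sequencing (ChIP-seq), in 18 samples of 6 groups, to compare where each protein binds with and without the other. FLC in *svp-41* comprised 3 samples of the genotype *svp-41 FLC FRI*, which lacks SVP function, precipitated with a polyclonal antiserum against FLC. The peaks were called against the double mutant *svp-41 flc-3 FRI*, which lacks both proteins and was precipitated with the same antiserum (3 samples by the labels). The study's supplement instead speaks of 4 negative controls pooled for peak calling, without naming them. Both lines are in the Columbia accession and carry an active *FRI* allele, and the above-ground tissue of 2-week-old seedlings was used. The day length under which they grew differs between the sample labels and the methods of the study. The 3 replicates of FLC in *svp-41* reach the list as 1 merged set of peaks, so no value below has a replicate error, and the read depth behind each peak is unknown.

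FLC is a repressor of flowering that holds vernalization-requiring plants in the vegetative state, and an active FRI keeps *FLC* expressed until prolonged cold silences it. FLC and its partner SVP belong to the MADS-box family, whose members bind as dimers to a DNA element called the CArG-box, written as CC, then 6 letters that are each A or T, then GG. They repress genes that promote flowering, among them *SOC1*, *FT* and *SEP3*. In *svp-41* any binding of FLC takes place without functional SVP.

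Each peak comes with a start, an end, a summit, a fold-enrichment over the control and a −log10(*P*) of the peak caller, both from the authors' file. Which replicate's values a merged peak carries is not stated in the sources used here. Rank below always means rank by −log10(*P*), with 1 for the highest. Starts are used as given, and since their first base may be numbered 0 or 1, positions and distances can be off by 1 bp. The authors assigned a gene to a peak lying within 3 kb upstream of its transcription start or 1 kb downstream of its end. A peak was counted as lying in copied sequence where 150 bp or more of the 200 bp around its summit aligned to another place at 95% identity or higher. Copies matter here because the aligner placed a read that fits several places at only 1 of them, and the effect of that choice on the peaks was not tested. Shares are given with 95% Wilson intervals, which cover counting error only.

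The stretches of DNA under the summits are shown first, because the element that FLC recognises was found there in 39 of the 419 peaks. The next 8 are all CArG-boxes within 100 bp of a summit among the 50 highest peaks and among the flowering genes listed for this report. Each stretch has 30 bases, the capitals mark the CArG-box, and the strand is the plus strand of the TAIR10.1 assembly, which shares its coordinates with TAIR10.
no gene (rank 19), chr4:17319886-17319915: ttagagatttCCTATTTAGGaaacgagacg
AT1G44010 (rank 20), chr1:16713655-16713684: taaagacaaaCCAAAAATGGaaagaaacaa
AT5G58900 (rank 32), chr5:23785275-23785304: gcaaatgaacCCATAAATGGaaagaaaact
SHP2 (rank 35), chr2:17819837-17819866: aaagggattaCCAAAAAAGGaaagtttcca
FT (rank 70), chr1:24331791-24331820: aaattattttCCTTTTTTGGggtatactga
MIR156E (rank 170), chr5:3865686-3865715: gtgtgttttgCCTAAAAAGGaaagttgtca
SMZ (rank 181), chr3:20379158-20379187: atcggcctttCCTTATTTGGtaagactaaa
AGL18 (rank 414), chr3:21233610-21233639: agcaaagccaCCAAATATGGaaaattgcta

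The highest peaks of well known genes lacked a full CArG-box in this window. Not every high peak held even an imperfect match. With 1 changed C or G allowed, 26 of the 50 highest had one (52.0%), and ranks 3, 4 and 5 had none. The stretches below come from a choice of peaks that did. They are the matches nearest to their summits that differ from the element at 1 C or G. They are also on the plus strand, with that imperfect match in capitals.
SOC1 (rank 1), chr2:18811123-18811152: tcatcctttaCTTATTTTGGaaaaaagcct
AOC4 (rank 2), chr1:4548756-4548785: tggatactttCTATATTTGGaaagtttggc
NAC3 (rank 6), chr3:5236823-5236852: tcatttctttCCTAAAATAGtaacaattca
CBF1 upstream peak (rank 8), chr4:13023573-13023602: gaagaaaacaACAAAATTGGctttagtgga
SEP3 (rank 9), chr1:8598862-8598891: acctcgttacCCAAAATAGAaagatggagt
CBF1 downstream peak (rank 17), chr4:13021469-13021498: gttttatacaCTATTTTAGGaaactttttt
AP3 (rank 59), chr3:20121208-20121237: acttgagttaCTAAAAATGGaaagtattgc

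Of the 39 peaks with a full CArG-box within 100 bp of the summit (9.31%, interval 6.88% to 12.5%), 18 had it within 10 bp and 38 within 50 bp, with a median distance of 12 bp. The element was present in 1.24% of 591775 windows of the same 201 bp that tile the 5 chromosomes. Allowing 1 changed C or G gave 175 peaks (41.8%), against 18.7% of all windows. Over 4 successive ranges of rank of nearly equal size, from the highest to the lowest, the CArG-box was in 13.3%, 7.62%, 8.57% and 7.69% of peaks. Within the first range its share did not rise toward the top, since it was in 4 of the 50 highest peaks and in 10 of the next 50. Peaks with a gene held it in 25 of 242 cases (10.3%) and peaks with no gene in 14 of 177 (7.91%). Of these 14, 11 belonged to 1 family of copied sequence described below. The G-box CACGTG, a palindrome bound by bHLH and bZIP factors, was in 16 peaks (3.82%), against 2.21% of all windows. All 16 lay outside copied sequence, where most peaks had a gene. In that part of the list the G-box was in 15 of 209 peaks with a gene (7.18%) and 1 of 19 with none (5.26%). A match is only a match of letters and does not show that FLC bound it.

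**Figure D1:**
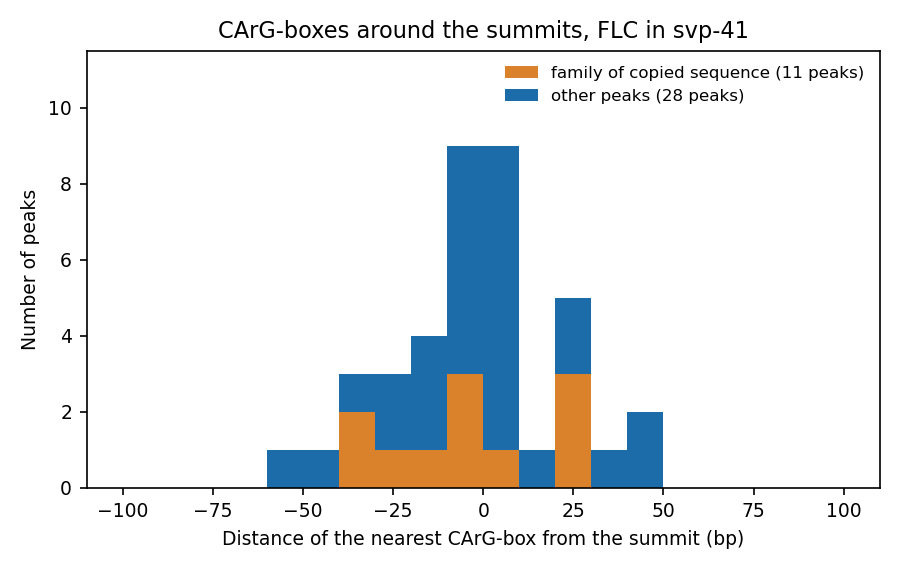
Distance in bp between the summit and the nearest CArG-box within 100 bp, for the 39 peaks of FLC in *svp-41* that hold one, with the number of peaks on the vertical axis. Stacked colours separate 11 peaks of 1 family of copied sequence and 28 other peaks, negative distances lie at smaller coordinates than the summit, and 38 of the 39 boxes lie within 50 bp of the summit.

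In several of the printed stretches the box is followed by AAA, or preceded by TTT on the strand shown, as at *SHP2*, AT5G58900, *MIR156E* and *SMZ*. This was noticed in the printed sequences and then counted in the same peaks, so it is a description. Among the CArG-box peaks outside the family of copied sequence described below, 22 of 28 (78.6%) had such a flank. Among those of them with a gene it was 21 of 25 (84.0%). Of the 7741 CArG-boxes on the 5 chromosomes, 870 had it (11.2%).

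The 419 peaks were spread unevenly. Chromosome 2 carried 106 peaks, or 5.38 per Mb, and chromosome 4 carried 80, or 4.30 per Mb. Chromosome 5 had 93 peaks (3.45 per Mb), chromosome 3 had 71 (3.03 per Mb) and chromosome 1, the longest, had 69 (2.27 per Mb), and the whole genome averaged 3.52 per Mb. The excess on chromosomes 2 and 4 lay largely in peaks with no gene, which were 58 of the 106 and 48 of the 80, but only 4 of the 69 on chromosome 1. Counting only peaks with a gene, the density was 2.44 per Mb on chromosome 2 and between 1.72 and 2.14 per Mb on the other 4. Peaks outside copied sequence were spread most evenly, at 1.72 to 2.00 per Mb on every chromosome. The 50 highest peaks were divided 11, 11, 11, 9 and 8 over chromosomes 1 to 5.

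**Figure D2:**
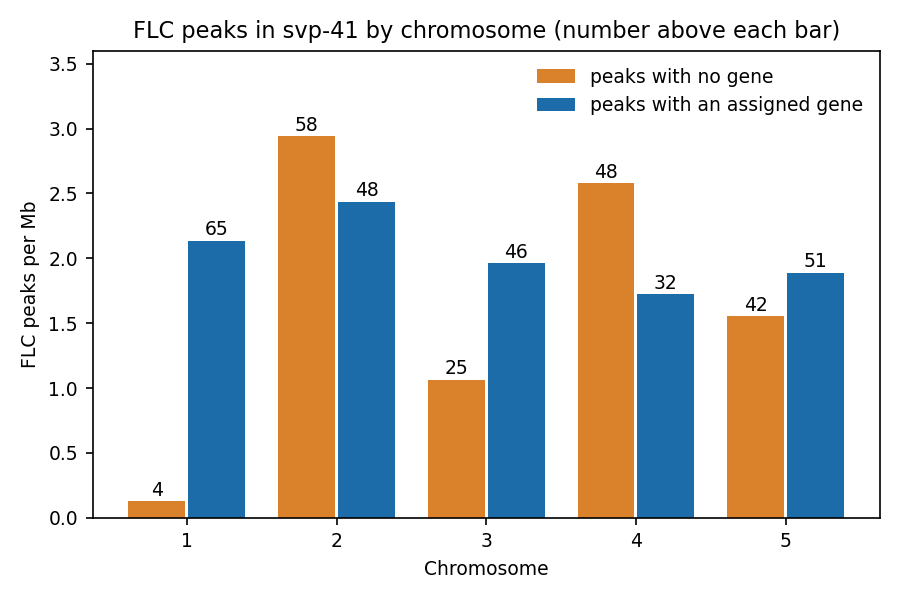
Peaks of FLC in *svp-41* per Mb of each of the 5 chromosomes, as separate bars for peaks with no gene and peaks with an assigned gene, with the number of peaks above each bar. Bars of peaks with an assigned gene lie between 1.72 and 2.44 per Mb, whereas the numbers with no gene run from 4 on chromosome 1 to 58 on chromosome 2.

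Within chromosomes, a few short regions held a large share of the list. Of 121 bins of 1 Mb, 13 had no peak and the median bin had 2. The first bin of chromosome 2 had 41 peaks, of which 35 had no gene and 39 lay in copied sequence. The 12th bin of chromosome 5 had 29 peaks, none with a gene, the 4th bin of chromosome 4 had 23, also without a gene, and the 4th bin of chromosome 2 had 18. Together these 4 bins held 111 peaks, 26.5% of the list. Without copied sequence no bin held more than 6. When peaks whose summits followed each other within 5 kb were counted as 1 place, the list shrank to 286 places, of which 252 held a single peak. The most crowded place, on chromosome 2 from 14505 to 36450, held 17 peaks and none had a gene.

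Peak width ranged between 119 and 1911 bp, with a median of 300 bp, and the higher-ranked peaks were wider. The median width was 446 bp, 302 bp, 254 bp and 234.5 bp over 4 successive ranges of rank of nearly equal size, from the highest to the lowest. The 50 highest peaks had a median of 517.5 bp and the next 50 one of 406.5 bp. Across the 419 peaks, width and −log10(*P*) had a Spearman correlation of 0.388, and a Pearson correlation of 0.481 on the log2 scale. All peaks come from the same libraries, and width and −log10(*P*) are both set by the same pile of reads, so these correlations describe the list only.

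The relation between width and rank was different in copied sequence. The Spearman correlation was 0.0824 over the 191 peaks in copied sequence, against 0.645 over the 228 others, and the Pearson correlation was 0.284 against 0.665. In peaks with no gene it was 0.141 (177 peaks), and in peaks with a gene 0.565 (242 peaks). The widest peak of all, 1911 bp on chromosome 2 from 34539 to 36450, ranked only 16th and had no gene. A peak of 1250 bp whose summit lay 294 bp downstream of AT2G01010, a gene of the 18S ribosomal RNA, ranked 418th and was also assigned to AT2G01020 and AT2G01021. Outside copied sequence the widest peak was the one upstream of *CBF1*, with 858 bp at rank 8, and the *SEP3* peak at rank 9 had 724 bp. Fold-enrichment and −log10(*P*) themselves had a Spearman correlation of 0.836, and 113 peaks shared both values exactly with at least 1 other peak.

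**Figure D3:**
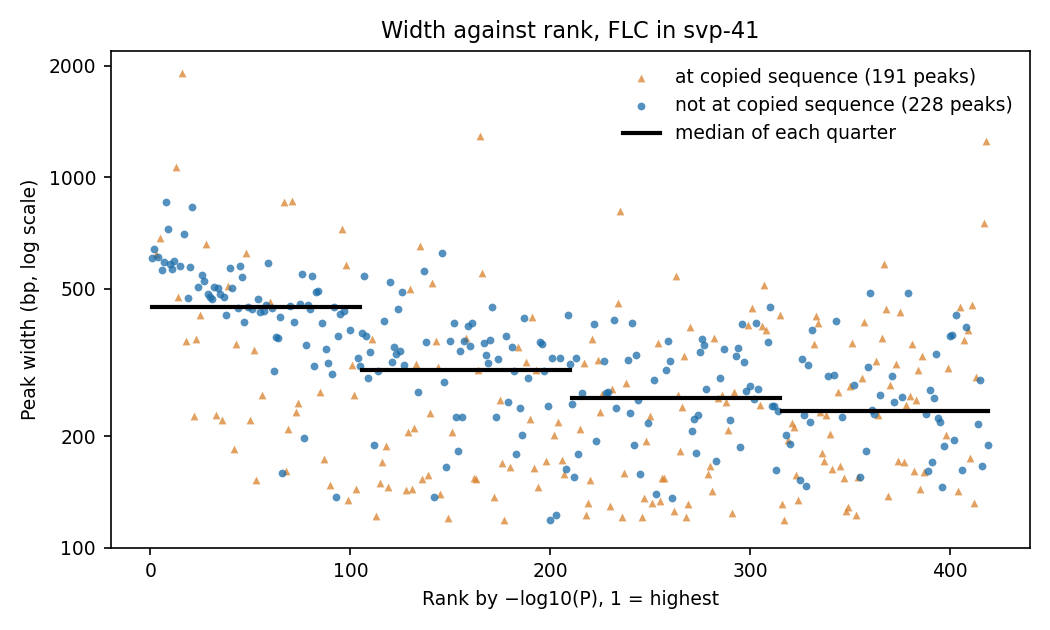
Width of each of the 419 peaks in bp (log axis) against its rank by −log10(*P*), with triangles for the 191 peaks in copied sequence and circles for the 228 others. Black lines give the median width of 4 successive ranges of rank, which is 446 bp in the first and 234.5 bp in the last.

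The 50 highest peaks carried 55 assigned genes, and 14 of these peaks had no gene (28.0%, interval 17.5% to 41.7%). In the rest of the list 163 of 369 peaks had none (44.2%). The boundary fell between close values, a −log10(*P*) of 48.89 for the last peak inside and 48.85 for the first outside. Of the 36 top peaks with a gene, the summit lay inside the nearest assigned gene in 16, upstream of it in 10 and downstream in 10. Over all 241 peaks whose assigned genes could be placed, the counts were 104 inside, 85 upstream at a median distance of 676 bp, and 52 downstream. Some genes of the top peaks are grouped below by their known roles, and apart from the flowering genes this grouping was made after the values were seen.

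Genes of flowering and floral organs were led by *SOC1* (AGL20, AT2G45660), which encodes a MADS-box protein that promotes flowering. Its peak was 17.01-fold enriched with a −log10(*P*) of 204, and its summit lay 16 bp upstream of the transcription start, on chromosome 2 from 18810847 to 18811451. *SEP3*, which specifies floral organs together with other MADS-box proteins, had a peak of 11.8-fold (−log10(*P*) of 141) with the summit 2744 bp upstream. That peak was also assigned to AT1G24265, whose start was nearer at 1524 bp. The *SHP2* peak, at a MADS-box gene of carpel and fruit development, was 6.48-fold enriched with a summit 260 bp upstream. *RGL2*, a DELLA repressor of gibberellin responses known from seed germination, had a 7.90-fold peak 1137 bp upstream. That peak was also assigned to AT3G03460, whose end was nearer at 107 bp. Just outside the 50 highest, at rank 54, stood *ATC*, a relative of *TFL1* that represses flowering, with 5.69-fold enrichment, named after its value was seen.

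Genes of cold and drought responses stood among the high peaks. *CBF1* and *CBF3* (DREB1A) encode transcription factors that switch on cold acclimation, and they stand beside each other with *CBF2* on chromosome 4. The peak 576 bp upstream of *CBF1* was 11.7-fold enriched (−log10(*P*) of 148) and was also assigned to *RS40*, 926 bp upstream of its start. Another peak 329 bp downstream of *CBF1*, which was also assigned to *CBF3*, was 10.7-fold enriched (−log10(*P*) of 100). *CBF2*, looked up after these values were seen, had a lower peak in its 5′ UTR, with 4.21-fold enrichment at rank 159. *LTI78* (also called RD29A), a target gene of the CBF proteins that is induced by cold and drought, had a 9.05-fold peak 148 bp upstream. *P5CR*, the enzyme of the last step of proline synthesis, had a 7.98-fold peak in its 5′ UTR, in sequence with 1 copy elsewhere. *RD26*, a NAC factor of the drought response that was also looked up afterwards, had a 3.88-fold peak at rank 243. No count of all cold or drought genes was made.

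Genes of jasmonate synthesis, turnover and response were also present. *AOC4* encodes an allene oxide cyclase of jasmonate synthesis, and the second highest peak of the list lay in its 3′ UTR with 13.96-fold enrichment. *NAC3* (ANAC055), a NAC transcription factor of jasmonate and drought responses, had a 14.9-fold peak 638 bp downstream. *ST2A*, a sulfotransferase that acts on hydroxyjasmonate, had a 7.81-fold peak 21 bp upstream and a second one of 3.53-fold. *ILL6*, a hydrolase of amino acid conjugates of jasmonate, had a 7.21-fold peak in an intron. Lower in the list, and looked up after the values were seen, were the jasmonate repressor genes *JAZ13* (4.62-fold), *JAZ6* (4.11-fold) and *JAZ9* (2.73-fold) and the lipoxygenase gene *LOX6* (4.66-fold). No count of all jasmonate genes was made, so these names do not show that the pathway is over-represented.

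Other top genes had diverse roles, and only some of them are named here. *BZIP49*, a transcription factor gene, had a 15.4-fold peak in its 5′ UTR. *SRF3*, a receptor-like kinase gene, had a 12.1-fold peak, also in the 5′ UTR. AT1G20380, of the prolyl oligopeptidase family, had a peak of 15.1-fold enrichment 227 bp downstream, also in sequence with 1 copy. *PIP2E*, a plasma membrane aquaporin, was at 8.90-fold and *LAC10*, a laccase, at 8.11-fold. *TAP38*, the phosphatase that removes phosphate from light-harvesting proteins of the chloroplast, had a 4.997-fold peak 59 bp upstream. The same summit lay 22 bp downstream of AT4G27810. *SPT1*, a subunit of the enzyme that begins sphingolipid synthesis, was at 6.76-fold, and *SNX1*, a sorting nexin of endosomes, at 6.15-fold. The *SNX1* peak had its summit in the 5′ UTR of AT5G06130, 123 bp beyond the end of *SNX1*. Some peaks served several genes, and the 14.4-fold peak at rank 4 lay in a coding exon of AT1G04280 but was assigned to *RPS15* and *MPI7* as well.

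**Figure D4:**
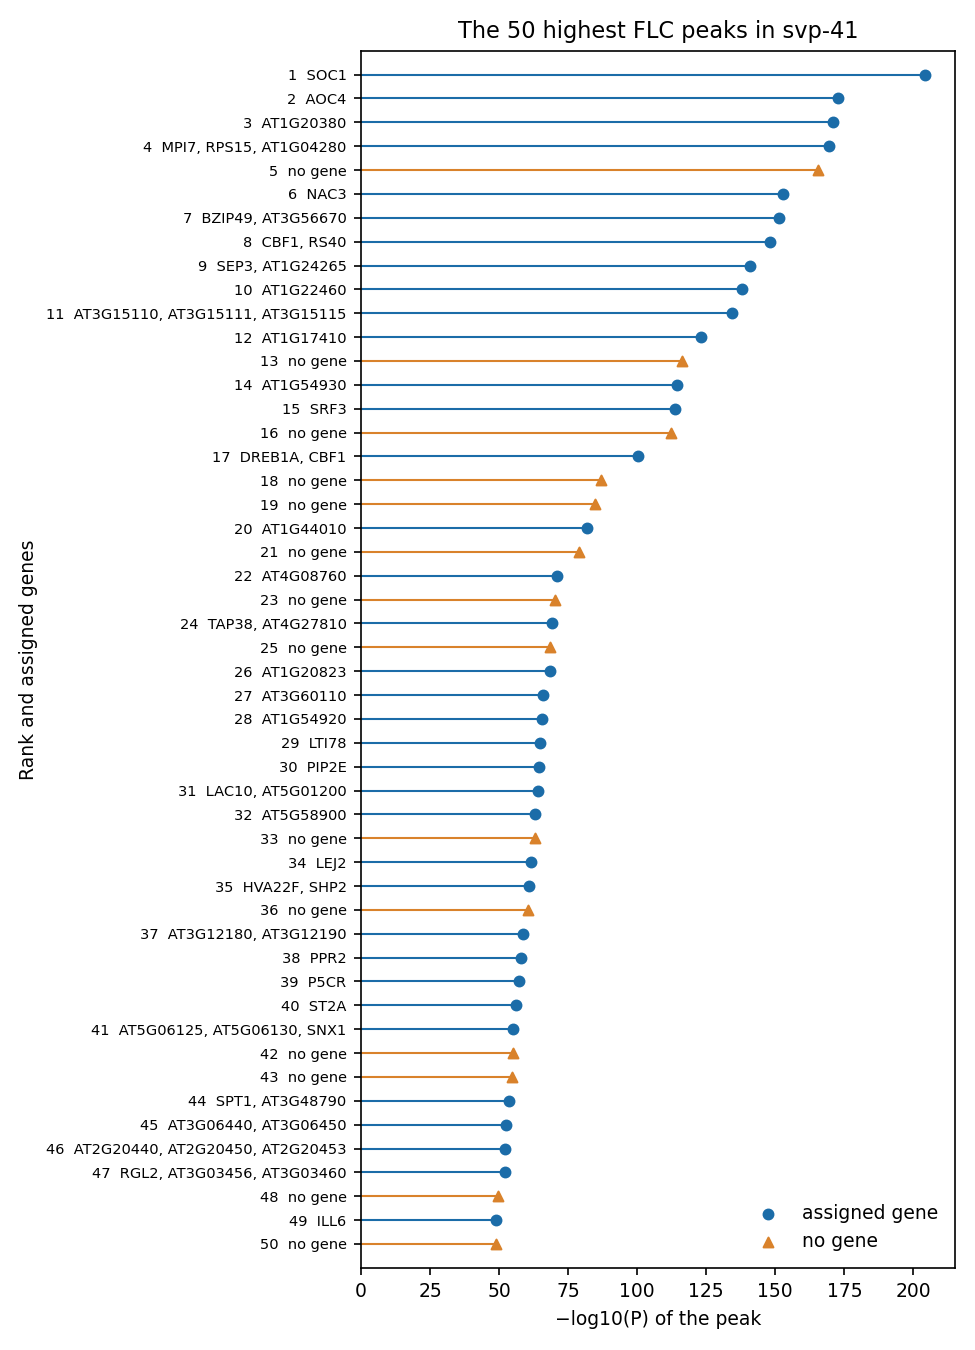
The −log10(*P*) of the 50 highest peaks of FLC in *svp-41*, called against the *svp-41 flc-3* control, 1 row per peak with its rank and assigned genes. Values run up to 204 at *SOC1*, and the 14 peaks with no gene, drawn as triangles, are spread over the whole range of ranks from 5 to 50.

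Listed flowering genes were looked up regardless of rank. Of 90 genes in 6 lists, 17 had a peak (18.9%), whereas 361 of 26711 protein-coding genes did (1.35%). The 90 include 4 microRNA genes, of which 2 had a peak, so the gene sets are not of the same kind. The lists were also written with earlier results of these data known, and this difference is a description. Among floral integrators and activators only *SOC1* and *FT* of 18 genes had one, and the *FT* peak, at the gene of the mobile flowering signal, was 6.10-fold enriched within an intron. Of 11 floral organ identity MADS-box genes 3 had a peak, *SEP3*, *SHP2* and *AP3*, the latest in rank being *AP3*, which specifies petals and stamens, with 6.88-fold enrichment in its 5′ UTR.

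Floral repressors had the most genes with a peak, 7 of 21. *SVP* itself, in which these plants are mutant, had a 6.73-fold peak in its 5′ UTR at rank 61. *TOE3* and *SMZ*, of the AP2 family of repressors targeted by miR172, had peaks of 5.15-fold 1417 bp upstream and 3.37-fold 2654 bp upstream. *TEM2* (RAV2), a repressor of *FT*, had a 3.88-fold peak 2441 bp upstream. The MADS-box repressor genes *AGL16*, *AGL15* and *AGL18* had peaks of 3.99-fold, 2.83-fold and 2.54-fold at ranks 223, 401 and 414. *FLC* itself had none. Of 18 gibberellin genes only *RGL2* had a peak, and of 18 light and clock genes *FIO1* (3.82-fold, 2886 bp upstream) and *RVE2* (3.88-fold, 2565 bp upstream). The juvenile-phase microRNA genes *MIR156F* and *MIR156E*, 2 of the 4 listed microRNA genes, had peaks of 3.56-fold 2697 bp upstream and 4.16-fold 1498 bp upstream. Besides *SEP3* and *RGL2*, further genes were assigned to the peaks of *SHP2*, *AP3*, *SVP*, *SMZ*, *TEM2*, *AGL16*, *AGL15*, *FIO1*, *MIR156F* and *MIR156E*. At *FIO1*, *SMZ* and *TEM2* the other gene was nearer (AT2G21060 at 184 bp, AT3G55000 at 2284 bp and AT1G68830 at 2052 bp).

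Genes with several peaks were few, 14 of the 391 assigned genes. Of these, 9 had 2 peaks, 3 had 3, 1 had 4 and 1 had 13. They divided by sequence, with 7 genes having no peak in copied sequence, 6 having only such peaks, and 1 having both. Among the genes outside copied sequence, *CBF1* had the highest values, and its summits lay 2121 bp apart on either side of the gene. AT1G72500 had peaks of 7.26-fold and 4.91-fold, AT4G16680 of 5.49-fold and 5.02-fold, and AT3G50560 of 4.94-fold and 3.21-fold, both in an intron. *VDD*, a transcription factor gene known from the female gametophyte, had peaks of 3.69-fold and 3.07-fold within 1 kb upstream of its start, and both were also assigned to the neighbouring tRNA gene AT5G18005.

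The gene with 13 peaks, AT2G08986 on chromosome 2, showed a different pattern. Its peaks spanned 10506 bp, had ranks between 149 and 380, and were all weakly enriched, between 1.46-fold and 1.82-fold. The peaks of AT4G08760 were higher, with 4 between 2.51-fold and 6.26-fold. AT2G01010, a gene of the 18S ribosomal RNA, had 3 between 1.44-fold and 1.67-fold. AT2G07981 and AT1G40104 also had 3 each, and the peaks of these 5 genes were in copied sequence.

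**Figure D5:**
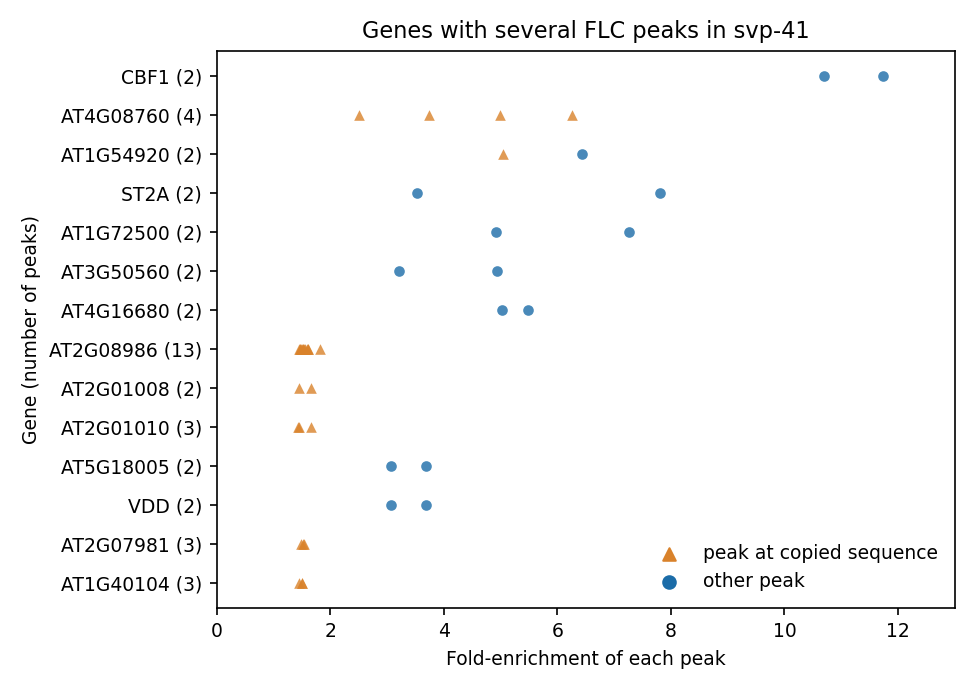
Fold-enrichment of every peak of the 14 genes with several peaks, 1 row per gene, with colour for copied and other sequence. AT2G08986 has 13 peaks that all lie below 2-fold, while the pair of *CBF1* peaks lies above 10-fold.

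Peaks with no gene made up 177 of the 419 (42.2%, interval 37.6% to 47.0%). Of these, 158 lay in copied sequence (89.3%), against 33 of the 242 peaks with a gene (13.6%). Over the genome, 601 of 5948 positions placed every 20 kb were in copied sequence, and so were 37.8% of the 1021 positions with no gene in reach. The median distance of these peaks to the nearest gene with a TAIR identifier, excluding pseudogenes, was 14709 bp. To the nearest protein-coding gene of TAIR10.1, which includes models added later, it was 11012 bp. The summit fell in an annotated pseudogene in 64 of the 177 (36.2%), against 6 of the 242 peaks with a gene (2.48%), while pseudogenes cover 8.78% of the chromosomes. The share of pseudogenes among positions with no gene in reach was not counted, so 8.78% is not a matched background for these peaks. Another summit lay within 1 kb for 85 of the 177 and for 27 of the 242.

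Some of these peaks were as high as those of known targets. The highest, rank 5, lay on chromosome 2 from 32802 to 33488 inside the pseudogene AT2G01029, with 15.5-fold enrichment and 23 copies elsewhere, and the peaks of ranks 13 and 16 were in the same pseudogene. Ranks 18 and 43 fell in the pseudogenes AT5G28110 and AT5G28120 on chromosome 5, and ranks 25, 33 and 42 lay in or within 248 bp of the pseudogene AT2G01040 on chromosome 2. Of the 14 top peaks with no gene, 12 were in copied sequence, whereas 5 of the 36 top peaks with a gene were. The exceptions were the peaks of ranks 21 and 19, both on chromosome 4. Rank 21 had 5.75-fold enrichment 1048 bp from AT4G08760, and although it had no copy at 95% identity it had one at 90% and belonged to a family of 9 related peaks. Rank 19, from 17319696 to 17320169, had no copy at either limit, 9.64-fold enrichment, a −log10(*P*) of 84.6 and the CArG-box printed above, and lay 3456 bp from AT4G36740.

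Copied sequences recurred across the list itself. When peaks were joined whose summit windows aligned with each other, 137 of the 419 fell into 23 families, and 112 of these had no gene. One family, noticed for its sequence, consisted of 12 peaks with no gene on chromosomes 1 to 4, of which 11 carried a CArG-box. Their enrichment was between 2.66-fold and 4.71-fold and their ranks between 85 and 410. The 30 bases around the box were identical in 8 of the 11, and the 4 versions found are printed here on the strand where they read alike, with the box in capitals.
rank 85, chr3:12484444-12484473, plus strand: tgtgcggtttCCAAAAATGGaaagtttcct
rank 122, chr4:4099387-4099416, minus strand: tgtgtggtttCCAAAAATGGaaagtttccc
rank 266, chr4:2869630-2869659, minus strand: tgtgcaatttCCAAAAATGGaaagtttccc
rank 280, chr2:5233085-5233114, minus strand: tgtgcggtttCCAAAAATGGaaagtttccc

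The box of this family has the same letters as the one under the peak of AT1G44010, and all 11 boxes are followed by AAA. The genome holds 43 copies of this sequence at 85% identity or more over at least 150 bp. Of the 25 copies with a CArG-box 11 had a peak, and of the 18 without one 2 had a peak. The 28 CArG-box peaks outside the family included 25 with a gene. These counts were made after the family was seen, and which of the near-identical copies the reads came from was not tested.

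Tandem repeats made up another set of low peaks. Within 1001 bp around the summit, 66 peaks (15.8%) matched themselves at a fixed distance with at least 60% identity, compared with 0.504% of the windows around the 5948 spaced positions. None of the 100 highest peaks did, and the best had rank 130. In 57 the unit was about 178 bp, the length known for the satellite that makes up Arabidopsis centromeres. These 57 count 13 peaks whose best match lay at a longer distance, up to 357 bp. The enrichment of the 57 peaks lay between 1.43-fold and 2.41-fold with a median of 1.55-fold, 42 had no gene, and none held a CArG-box. They were divided 3, 15, 1, 20 and 18 over chromosomes 1 to 5, and 12 of the 13 peaks of AT2G08986 belonged to tandem repeats of this unit. A further 8 peaks on chromosome 4, with summits from 3054719 to 3060533, had a unit of 498 bp with enrichment between 1.47-fold and 1.60-fold. The unit under the highest of these peaks is shown because it recurs across so many low peaks. Of its 178 bases, 158 (88.8%) recur at the same place in the next unit and are in capitals.
rank 130, chr5:11726038-11726215, plus strand: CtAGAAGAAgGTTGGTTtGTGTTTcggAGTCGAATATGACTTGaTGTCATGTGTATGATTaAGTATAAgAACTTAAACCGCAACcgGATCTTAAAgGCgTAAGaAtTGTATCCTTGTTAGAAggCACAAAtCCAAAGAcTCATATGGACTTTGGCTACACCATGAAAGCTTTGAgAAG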

How the data were processed

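ChIP DNA was sequenced and, per the sample notes, passed through CASAVA 1.8, aligned to TAIR10 with Bowtie2 2.0.2 and searched for peaks with MACS. By the study's methods, duplicate reads were removed, a read with several alignments was kept at its best one, peaks were filtered for reproducibility and replicates were merged. The authors deposited for each peak a fold-enrichment over the control, a linear ratio, and the −log10 of the p-value, with assigned genes. Reads and single replicates were not analysed here, so depth and replicate error are unknown, and 0 columns of per-sample values were left unused. The other 3 lists were read only to count their peaks.

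From the list, summits were set as start plus offset. Counts, correlations and motifs were computed with Python 3.11.15, numpy 2.4.6, pandas 2.3.3 and scipy 1.17.1, copies with blastn 2.17.0, and figures with matplotlib 3.10.9. Sequences and gene positions came from RefSeq's TAIR10.1. Of 421 peak-gene pairs, 413 had their gene there, and 411 of these lay in the window the authors stated. On simulated data, 200 of 200 planted CArG-boxes, 30 of 30 copies and 100 of 100 tandem repeats were found. No significance test was run, because the list holds no replicates. Genes on a list were named if they had a peak. Other names were chosen from the genes assigned to the 50 highest peaks or to several peaks, not all of which were named. Some further genes were looked up after the values were seen. The members and lists were chosen with earlier results of these data known. Alternatives changed the −log10(*P*) minimum, copied sequence, the gene window and annotation, and the motif.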

Additional observations from a re-analysis of the deposited data

How the results depend on the processing

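Of 40 alternatives over 13 results, 13 kept the value, within 1.5 times for counts and densities and within the main value's 95% interval for shares and correlations, and 27 moved it. Requiring a −log10(*P*) of at least 20 kept 152 peaks at 1.05, 1.88, 1.19, 1.35 and 1.11 per Mb on chromosomes 1 to 5, with at most 20 in a 1-Mb bin, a width correlation of 0.548, 5 genes with several peaks, 34.9% of peaks with no gene and 38.2% in copied sequence. Leaving out copied sequence kept 228 peaks, with 1.78, 2.00, 1.72 and 2.00 per Mb on chromosomes 2 to 5, at most 6 in a bin, a width correlation of 0.645, 7 genes with several peaks, 8.33% of peaks with no gene and 4.0% of the 50 highest with none. The width correlation was 0.565 over peaks with a gene, summits merged within 1 kb left 8 genes with several peaks, and a shorter gene window left 59.2% of peaks without a gene. Allowing 1 changed letter put a CArG-box in 41.8% of peaks. Among the alternatives chosen after seeing the data, the width correlation was 0.0824 in copied sequence alone, and 6.88% of peaks had a CArG-box without the family of copies. Of the rank choices, ordering by fold-enrichment gave 20% of the 50 highest with no gene. Single replicates could not be left out, since the list merges them. No paired analysis was possible because no result comes from a test. The read depth is unknown, and its effect on how low an enrichment could be listed was not tested.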
